A study of Mus musculus with 9 samples.

Results

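The 31 genes described here carry glucose into the cell, split it to pyruvate, turn pyruvate into lactate and export it, or pass pyruvate to the mitochondrion through the pyruvate dehydrogenase complex. They were chosen by name from the probes of a mouse array, out of 21995 genes tested, and every one of the 31 had a probe that passed the filter on dim probes. The name Pkm2 in the gene list is held by no probe, and the probe of that gene is listed as Pkm, the symbol used below.

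Glycolysis splits glucose to pyruvate in the cytosol, and most of its steps are served by several isoforms encoded by separate genes, of which some are typical of adult muscle (Pfkm, Pgam2, Eno3) and others are widely expressed. Pyruvate is either reduced to lactate by lactate dehydrogenase or oxidised to acetyl-CoA by the pyruvate dehydrogenase complex, which pyruvate dehydrogenase kinases switch off. Many of these genes carry binding sites for hypoxia-inducible factors, which raise glycolysis in cells short of oxygen.

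The cells were C2C12, a mouse myoblast line that fuses into myotubes when serum is withdrawn. They were kept for 72 h with vehicle, with 1 nM or with 10 nM calcitriol, the active hormone made from vitamin D, which acts through the vitamin D receptor. Each group has 3 samples, called biological replicates in the series' design text. The series title names myotubes. The vehicle's composition, the culture medium and the stage at which treatment began are not stated in the labels used here.

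The 9 RNA samples were read on 1 array each, in 1 colour, and the number of arrays limits the precision. Values below are log2 of the processed signal minus the 75th percentile of that array, so 0 is the level of a bright probe and a difference of 1 between groups is a 2-fold difference. The 75th percentile lay between 2826 and 3389 intensity units. The array of vehicle replicate 3 stood apart: 96.4% of its spots were well above background against 67.1% to 79.2% on the other 8, and 14% of its spots were marked as non-uniform. Its excess lay in dim probes. None of the 31 genes lacked a value on it, and their values there differed by -0.40 to 0.46 from the mean of the other vehicle arrays. Slide 1 held vehicle replicates 1 and 2 with 1 array of each dose, slide 2 held vehicle replicate 3 with 2 arrays at 1 nM and 1 at 10 nM, and slide 3 held 10 nM replicate 3 alone. All 10 markers of skeletal muscle cells were above background on all 9 arrays. Of the markers of other cell types, the epithelial Epcam was above background on 0 arrays and Krt18 on 1.

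Most of the glycolytic genes that changed were lower with calcitriol, while Ldhb, Pgam2, Pfkm, Hk2, Pdk2, Pdha1 and Dlat were higher at both doses. At 1 nM 7 of the 31 genes rose, 17 fell and 7 did not pass an adjusted p of 0.05, against a background of 23.6% of all genes called, with 11.8% higher and 11.8% lower. At 10 nM 8 rose, 15 fell and 8 did not pass, against 30.1% of all genes called, with 15.4% higher and 14.7% lower. The median log2 change of the 31 genes was -0.48 at 1 nM, where that of all genes was -0.09, and -0.38 at 10 nM, where that of all genes was -0.11. The calcitriol and vehicle arrays did not overlap for 26 of the 31 genes at 1 nM, against 42.4% of all genes, and for 26 at 10 nM, against 43.8% of all genes. Both doses were compared with the same vehicle arrays, so the comparisons are not independent. In RNA from whole cultures, fewer cells of a type and less RNA per cell cannot be told apart.

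The counts depended on the scaling. With each array centred on its median in place of its 75th percentile, all genes had a median change of 0.38 at the lower dose and 0.40 at the higher dose. Under that scaling 3 of the 31 genes rose and 4 fell at 1 nM, and 4 rose and 4 fell at 10 nM. Of all genes 1513 were then called at 1 nM and 2530 at 10 nM. The share of higher calls among all genes was then 62.1% at 1 nM, against 49.9% in the scaling used here, and 67.1% at 10 nM, against 51.2%. The median of the 31 genes minus the median of all genes was -0.39 in the scaling used here and -0.36 under array medians at 1 nM, and -0.27 and -0.25 at 10 nM. Leaving out vehicle replicate 3 as well, a setting added after seeing the data, gave 5 higher and 13 lower at 1 nM and 7 higher and 13 lower at 10 nM. There 3635 of all genes were called at 1 nM and 5448 at 10 nM. In the scaling used here, leaving out that array gave 7 higher and 17 lower at 1 nM and 8 higher and 16 lower at 10 nM. The totals over all genes were then 5570 called at 1 nM and 7155 at 10 nM. Each fit within 1 slide has at least 1 group of a single array, which is assumed to vary like the others. Within slide 1 alone 1 gene rose and 9 fell at either dose, with 1584 of all genes called at 1 nM and 2574 at 10 nM. Within slide 2, against the single array of vehicle replicate 3, 8 rose and 16 fell at 1 nM and 8 rose and 15 fell at 10 nM, with 10449 and 10019 of all genes called. The calls of Aldoc, Ldhb, Slc16a3 and Pdk1 against vehicle were kept at both doses in all 22 alternatives. The plot of all 31 genes by array shows the pattern of high and low values.

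**Figure D1:**
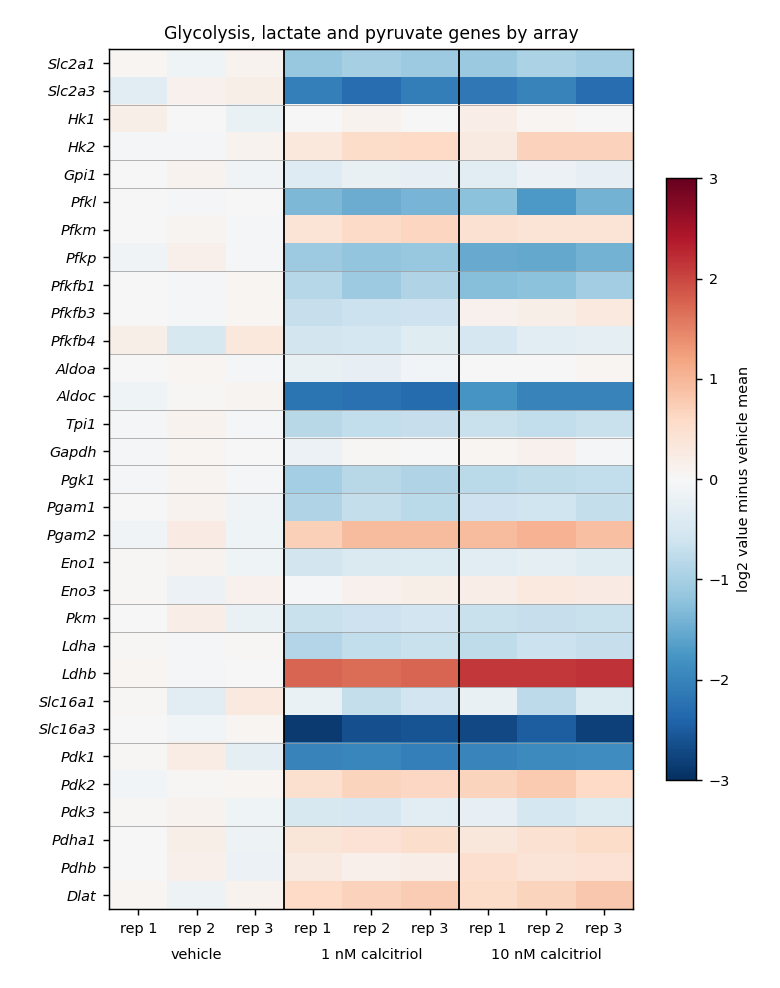
Log2 value of each of the 31 genes (rows, in pathway order) on each of the 9 arrays (columns), minus that gene's vehicle mean; red is higher and blue lower than vehicle. Ldhb is higher on all 6 calcitriol arrays, and Slc16a3, Slc2a3, Aldoc and Pdk1 are lower on all 6.

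The promoters of Slc16a3, Slc2a1, Ldha, Pgk1, Pdk1 and Ldhb, picked by name, are shown first. Hypoxia response elements are built around the letters ACGTG or GCGTG. The sequences are the 160 bases before the start site of RefSeq on GRCm38.p6, with matches of ACGTG or GCGTG on either strand in capitals (CACGT and CACGC are the same letters on the other strand, and CACGTG holds a match on each strand).
Slc16a3, chr11:120948907-120949066, plus strand: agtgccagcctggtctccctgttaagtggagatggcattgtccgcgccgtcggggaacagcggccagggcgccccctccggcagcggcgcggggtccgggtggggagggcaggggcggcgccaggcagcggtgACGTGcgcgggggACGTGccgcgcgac
Slc2a1, chr4:119108585-119108744, plus strand: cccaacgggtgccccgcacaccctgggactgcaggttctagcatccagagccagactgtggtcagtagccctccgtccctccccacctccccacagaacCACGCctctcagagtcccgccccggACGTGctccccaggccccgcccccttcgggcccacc
Ldha, chr7:46845644-46845803, plus strand: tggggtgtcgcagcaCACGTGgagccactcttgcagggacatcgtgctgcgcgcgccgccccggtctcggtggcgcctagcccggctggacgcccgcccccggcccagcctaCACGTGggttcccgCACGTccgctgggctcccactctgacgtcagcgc
Pgk1, chrX:106186940-106187099, plus strand: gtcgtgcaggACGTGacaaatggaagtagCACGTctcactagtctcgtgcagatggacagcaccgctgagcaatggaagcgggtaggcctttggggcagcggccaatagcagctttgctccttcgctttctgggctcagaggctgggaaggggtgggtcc
Pdk1, chr2:71873064-71873223, plus strand: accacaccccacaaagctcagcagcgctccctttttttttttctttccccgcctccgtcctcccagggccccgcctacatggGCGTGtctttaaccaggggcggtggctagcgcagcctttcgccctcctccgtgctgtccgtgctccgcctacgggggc
Ldhb, chr6:142507958-142508117, minus strand: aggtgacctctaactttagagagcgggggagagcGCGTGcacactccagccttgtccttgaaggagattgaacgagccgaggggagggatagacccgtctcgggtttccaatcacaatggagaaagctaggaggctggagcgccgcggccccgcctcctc

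In these stretches Ldha has 5 matches of ACGTG, Slc16a3 and Pgk1 have 2 each and Slc2a1 has 1. Pdk1 and Ldhb have 0 of ACGTG and 1 of GCGTG. Ldha and Pdk1 have 2 listed starts each, and the one richer in the motifs was shown. Around the other Ldha start GCGTG was found but no ACGTG, and around the other Pdk1 start neither. RefSeq windows of 300 bases, from 250 before to 50 after a start, were found for 30 of the 31 genes, 47 windows in all, and none for Slc2a3. ACGTG stood in 20 of these windows (42.6%), against 19.6% of all 32851 windows, and GCGTG in 25 (53.2%), against 32.4%. At least 1 of the motifs was found in 72.3% of the windows of these genes and in 43.8% of all windows. Among the genes not printed, ACGTG stood in windows of Hk2, Pfkm, Pdk2 and Pdhb, which rose at either or both doses. It also stood in windows of Aldoc, Pgam1, Pkm, Pdk3 and Pfkfb3, which fell at either or both. Windows of Hk1, Aldoa, Gapdh and Slc16a1, which did not pass, held it too. Windows of 1 gene overlap, and a match of 5 letters is a description of the sequence and not a bound site.

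Both glucose transporters among the 31 genes fell. Slc2a1, the widely expressed glucose transporter GLUT1, was 3.00, 2.81 and 3.06 on the vehicle arrays, 1.82, 1.95 and 1.85 at 1 nM and 1.84, 2.00 and 1.91 at 10 nM. All 6 calcitriol arrays lay below all 3 vehicle arrays. The log2 change was -1.08 ± 0.09 (SE) at 1 nM (adjusted p = 8.74e-05) and -1.04 ± 0.09 at 10 nM (adjusted p = 7.4e-05). Both calls were lost under array medians, with the direction kept. Slc2a3, the glucose transporter GLUT3, was far dimmer, at -3.82, -3.38 and -3.34 with vehicle, -5.57, -5.79 and -5.58 at 1 nM and -5.65, -5.52 and -5.80 at 10 nM. It fell, with log2 changes of -2.13 at 1 nM and -2.14 at 10 nM (adjusted p = 3.82e-05 and 2.49e-05), without overlap of the groups. Its size rested on the processing: the change was -1.16 at 1 nM and -1.08 at 10 nM with quantile normalization, and -0.63 and -0.57 in the submitters' table, none of them called.

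The hexokinases trap glucose as glucose 6-phosphate. Hk2, the insulin-responsive muscle form, averaged 0.38 ± 0.08 with vehicle, 0.87 ± 0.15 at 1 nM and 0.93 ± 0.24 at 10 nM (SD, n = 3 each). It rose 1.40-fold at 1 nM and 1.46-fold at 10 nM (adjusted p = 0.0375 and 0.0195), and these calls were lost in 11 and in 8 of the 22 alternatives. Hk1, the form of most tissues, changed by 0.04 and 0.08 and its groups overlapped. Gpi1, which turns glucose 6-phosphate into fructose 6-phosphate, fell by 0.28 at 1 nM (adjusted p = 0.044) and had a change of -0.24 at 10 nM (adjusted p = 0.0618), though under array medians the change at 1 nM was 0.21. The call at 1 nM was kept in 7 of the 22 alternatives.

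Phosphofructokinase, the committed step of glycolysis, is built from muscle (Pfkm), liver (Pfkl) and platelet (Pfkp) subunits, and these moved in opposite directions. Pfkl was 0.70, 0.64 and 0.71 with vehicle, -0.65, -0.79 and -0.70 at 1 nM and -0.53, -1.03 and -0.72 at 10 nM. It fell 2.63-fold at 1 nM and 2.72-fold at 10 nM, and no calcitriol array reached a vehicle array. Pfkp was 0.00, 0.26 and 0.08 with vehicle, -0.99, -1.08 and -1.03 at 1 nM and -1.41, -1.42 and -1.31 at 10 nM. It fell 2.22-fold and 2.81-fold, again without overlap. Pfkm was 3.99, 4.09 and 3.94 with vehicle, 4.41, 4.58 and 4.65 at 1 nM and 4.46, 4.41 and 4.41 at 10 nM. It rose 1.46-fold at 1 nM and 1.34-fold at 10 nM (adjusted p = 0.00228 and 0.00569), with all 6 calcitriol arrays above vehicle. Of these calls against vehicle, those of all 3 subunits were lost under array medians, and those of Pfkm also within slide 1, with every direction kept.

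The Pfkfb genes encode the enzymes that make and break fructose 2,6-bisphosphate, an activator of phosphofructokinase. Pfkfb3, the form with the highest ratio of kinase to phosphatase activity, was -0.63, -0.69 and -0.57 with vehicle, -1.33, -1.27 and -1.24 at 1 nM and -0.50, -0.46 and -0.34 at 10 nM. It fell by 0.65 at 1 nM (adjusted p = 0.000456), a call lost under array medians and within slide 1, and its change at 10 nM was 0.20 ± 0.07 (SE, adjusted p = 0.0775). The 1 nM arrays lay below and the 10 nM arrays above all vehicle arrays. Pfkfb1, known from liver and muscle, fell 1.93-fold at 1 nM and 2.27-fold at 10 nM, and both calls were lost with quantile normalization, in the submitters' table and under array medians. Pfkfb4 had changes of -0.48 and -0.38 with overlapping groups; vehicle replicate 2 lay at -0.54 beside 0.10 and 0.24 on the other vehicle arrays. Without that array the changes of Pfkfb4 were -0.71 at 1 nM and -0.62 at 10 nM, and both were called.

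**Figure D2:**
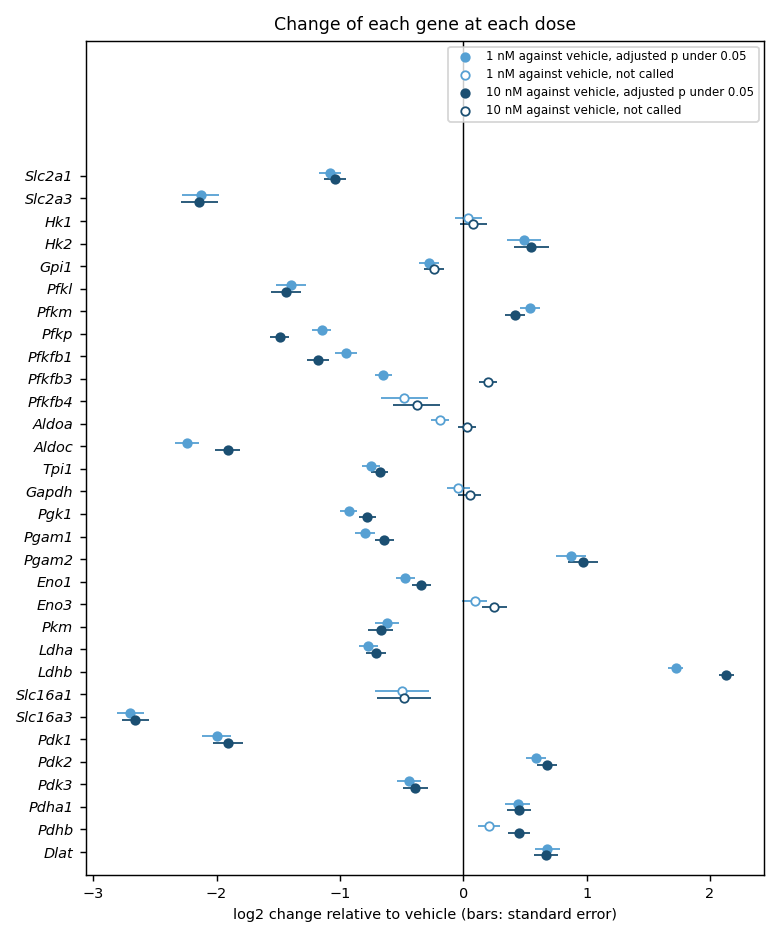
Log2 change of each gene at 1 nM (light) and 10 nM (dark) relative to vehicle, with bars of 1 standard error from limma; filled points passed an adjusted p of 0.05 over all genes. The points of most genes at the 2 doses lie close together. By the brightest probe, Pfkfb3 and Gpi1 are called at 1 nM alone and Pdhb at 10 nM alone.

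From aldolase to pyruvate kinase, Aldoc, Tpi1, Pgk1, Pgam1, Eno1 and Pkm fell at both doses, Pgam2 rose, and Aldoa, Gapdh and Eno3 did not pass. Aldoc, an aldolase best known from brain, was 0.04, 0.22 and 0.27 with vehicle, -2.00, -2.06 and -2.12 at 1 nM and -1.58, -1.82 and -1.82 at 10 nM. It fell 4.71-fold at 1 nM and 3.77-fold at 10 nM (adjusted p = 3.18e-06 and 4.84e-06), with no overlap. Aldoa, the muscle aldolase, changed by -0.19 (adjusted p = 0.104) and 0.03 (adjusted p = 0.751). Tpi1, which interconverts the triose phosphates, fell, with changes of -0.75 and -0.68. Pgk1, which makes the first ATP of the pathway, was 6.07, 6.19 and 6.05 with vehicle, 5.07, 5.26 and 5.20 at 1 nM and 5.28, 5.34 and 5.35 at 10 nM. Its fall was 1.90-fold at 1 nM and 1.71-fold at 10 nM (adjusted p = 8.82e-05 and 0.000161), and all calcitriol arrays lay below all vehicle arrays. Calls of Tpi1 and Pgk1 were lost under array medians, with the direction kept.

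Phosphoglycerate mutase has a widely expressed form, Pgam1, and a muscle form, Pgam2. Pgam1 fell, with changes of -0.80 at 1 nM and -0.64 at 10 nM, calls that were lost under array medians. Pgam2 was 1.93, 2.29 and 1.90 with vehicle, 2.76, 2.98 and 3.00 at 1 nM and 2.98, 3.09 and 2.95 at 10 nM. It rose 1.83-fold and 1.95-fold (adjusted p = 0.00164 and 0.000724), with all 6 calcitriol arrays above the vehicle arrays. Both calls were kept under array medians and lost within slide 1. Of the enolases, the widely expressed Eno1 fell, with changes of -0.47 and -0.34 (adjusted p = 0.00493 and 0.0179), but its change was 0.02 and 0.19 under array medians, and the calls were kept in 18 and 13 of the 22 alternatives. Eno3, the muscle enolase, changed by 0.09 and 0.25 and did not pass. Pkm, a pyruvate kinase gene of the last step, fell, with changes of -0.62 and -0.67. Its calls were lost under array medians and within slide 1, with the direction kept, and were kept in 20 of the 22 alternatives at each dose.

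The genes of lactate formation and export held the largest changes among the 31 genes in either direction. Ldha and Ldhb encode the subunits of lactate dehydrogenase, of which the A subunit is typical of glycolytic tissue and the B subunit of oxidative tissue. Ldhb was 0.01, -0.11 and -0.05 with vehicle, 1.69, 1.63 and 1.70 at 1 nM and 2.07, 2.06 and 2.12 at 10 nM. It rose 3.30-fold at 1 nM and 4.38-fold at 10 nM (adjusted p = 1.18e-06 and 2.88e-07), and the 3 groups did not overlap. Its probe lies at chr6:142438770-142438829 of mm9. Ldha was 6.96, 6.86 and 6.95 with vehicle, 6.03, 6.17 and 6.25 at 1 nM and 6.15, 6.27 and 6.22 at 10 nM. It fell 1.70-fold and 1.63-fold (adjusted p = 0.000304 and 0.000346), without overlap, and with array medians the changes were -0.28 and -0.18 and not called.

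Slc16a3, the monocarboxylate transporter MCT4 that exports lactate, was 2.92, 2.81 and 2.97 with vehicle, 0.02, 0.27 and 0.30 at 1 nM and 0.19, 0.42 and 0.11 at 10 nM. All calcitriol arrays lay more than 2 log2 units below all vehicle arrays. The fall was 6.52-fold at 1 nM and 6.31-fold at 10 nM (adjusted p = 2.83e-06 and 2.07e-06). Within slide 1 the log2 changes were -2.85 and -2.68, and within slide 2 they were -2.69 and -2.55. Its probe at chr11:120820030-120820089 of mm9 overlaps the second probe, whose changes were -2.79 and -2.67. Slc16a1, the transporter MCT1, had changes of -0.50 and -0.48 with overlapping groups and SEs of 0.22 (adjusted p = 0.159 and 0.148).

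The kinases that switch off pyruvate dehydrogenase moved in opposite directions. Pdk1 was 0.45, 0.63 and 0.14 with vehicle, -1.59, -1.54 and -1.64 at 1 nM and -1.57, -1.50 and -1.46 at 10 nM. It fell 3.99-fold and 3.77-fold (adjusted p = 2.04e-05 and 1.6e-05), and no calcitriol array reached a vehicle array. Pdk2, a widely expressed kinase, was -0.43, -0.32 and -0.29 with vehicle, 0.14, 0.31 and 0.28 at 1 nM and 0.32, 0.43 and 0.24 at 10 nM. It rose 1.51-fold and 1.60-fold (adjusted p = 0.00159 and 0.000568), with all calcitriol arrays above vehicle. Both calls were lost within slide 1, and that at 1 nM also under array medians. The second Pdk2 probe had changes of 0.35 and 0.45 (adjusted p over probes 0.145 and 0.058). Pdk3 fell, with changes of -0.44 and -0.39 (adjusted p = 0.0168 and 0.0212), but its change was 0.05 and 0.13 under array medians, and the calls were kept in 15 and 9 of the 22 alternatives. The call at 10 nM was lost with the replicate block.

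Of the 3 genes of the complex itself, Dlat and Pdha1 rose at both doses and Pdhb at 10 nM. Dlat, its acetyltransferase, was -0.48, -0.70 and -0.44 with vehicle, 0.06, 0.15 and 0.22 at 1 nM and 0.01, 0.13 and 0.26 at 10 nM. It rose 1.60-fold and 1.59-fold (adjusted p = 0.0022 and 0.0018), without overlap of calcitriol and vehicle arrays. Both calls were kept under array medians and lost within slide 1. Pdha1, the catalytic alpha subunit, rose by 0.44 and 0.45 (adjusted p = 0.0179 and 0.0127). Pdhb, the beta subunit, had a change of 0.21 at 1 nM (adjusted p = 0.155) and rose by 0.45 at 10 nM (adjusted p = 0.0088). The calls of Pdha1 at both doses and of Pdhb at 10 nM were lost under array medians and within slide 1.

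Between the doses Pfkfb3 and Ldhb were the members that limma called. At 10 nM against 1 nM 2 genes were higher, 0 were lower and 29 did not pass, against 3.81% of all genes called (1.6% higher and 2.21% lower), and the median change was 0.06, where that of all genes was -0.01. At an unadjusted p under 0.05 limma gave 5 higher and 2 lower (Pfkp and Pfkfb1). The share of all genes at that threshold was not counted, so these counts have no background. Pfkfb3 was 1.80-fold higher (log2 change 0.85 ± 0.07, SE; adjusted p = 0.00116) and Ldhb 1.33-fold higher (0.41 ± 0.06; adjusted p = 0.0115). For each of the 2 genes all 10 nM arrays lay above all 1 nM arrays. The groups did not overlap for 10 of the 31 genes, against 24% of all genes. With the replicate number as a block, 459 genes were called in all, against 837 without it, and Pfkfb3 and Ldhb were still called (adjusted p = 0.00782 and 0.0406). Of the 22 alternatives, Pfkfb3 kept this call in 19 and Ldhb in 12. That of Ldhb was lost with the slide block, in the submitters' table and without 1 nM replicate 2, 1 nM replicate 3 or 10 nM replicate 3, among others. Under array medians neither gene was called, at changes of 0.89 and 0.45, and the share of higher calls among all genes was 69%, against 41.9%. The change of Pfkp between the doses was -0.34 (adjusted p = 0.0771).

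The ratio of isoforms of the same step was compared within each array, where a shift of the whole array cancels. Of 16 pairs, 13 differed between the 6 calcitriol and the 3 vehicle arrays in an exact two-sided permutation test, each at p = 0.0238, the smallest that this design allows, and adjusted p = 0.0293 over the 16 pairs. This counts the calcitriol arrays as 6 samples. If the same-numbered arrays of the doses were taken as 1 sample, 3 against 3 could not go under an exact p of 0.1. No pair could then pass. The share of other gene pairs that would pass was not computed. For single genes, calcitriol and vehicle arrays did not overlap for 42.4% of all genes at 1 nM and 43.8% at 10 nM. Pairs of the same step share genes, so the 13 are not independent results. The log2 ratio of Ldhb over Ldha was higher by 2.66 with calcitriol, that of Pfkm over Pfkl by 1.91, that of Pgam2 over Pgam1 by 1.64 and that of Eno3 over Eno1 by 0.58. The ratio of Pdk1 over Pdk2 had a difference of -2.59, Slc16a3 over Slc16a1 of -2.19, Aldoc over Aldoa of -2.00, Pfkp over Pfkm of -1.80, Pdk1 over Pdk3 of -1.54 and Pdk3 over Pdk2 of -1.05. For each of the 13 pairs all calcitriol arrays lay on the same side of all vehicle arrays. The direction within slide 1 and within slide 2 was therefore fixed in advance and is no further check.

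The Pfkfb3 over Pfkfb1 ratio was higher by 0.84 and Pfkfb4 over Pfkfb1 by 0.63, but neither passed with quantile normalization or in the submitters' table. The Slc2a3 over Slc2a1 ratio had a difference of -1.08, which turned to 0.03 with quantile normalization and 0.53 in the submitters' table. Hk2 over Hk1 (0.46, exact permutation adjusted p = 0.0544), Pfkp over Pfkl (0.10, adjusted p = 0.5) and Pfkfb4 over Pfkfb3 (-0.20, adjusted p = 0.331) did not pass. Between the doses 3 arrays against 3 cannot reach an exact p under 0.1. There Ldhb over Ldha was 0.35 higher at 10 nM than at 1 nM and Pfkfb3 over Pfkfb1 1.08 higher, each at that smallest p.

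**Figure D3:**
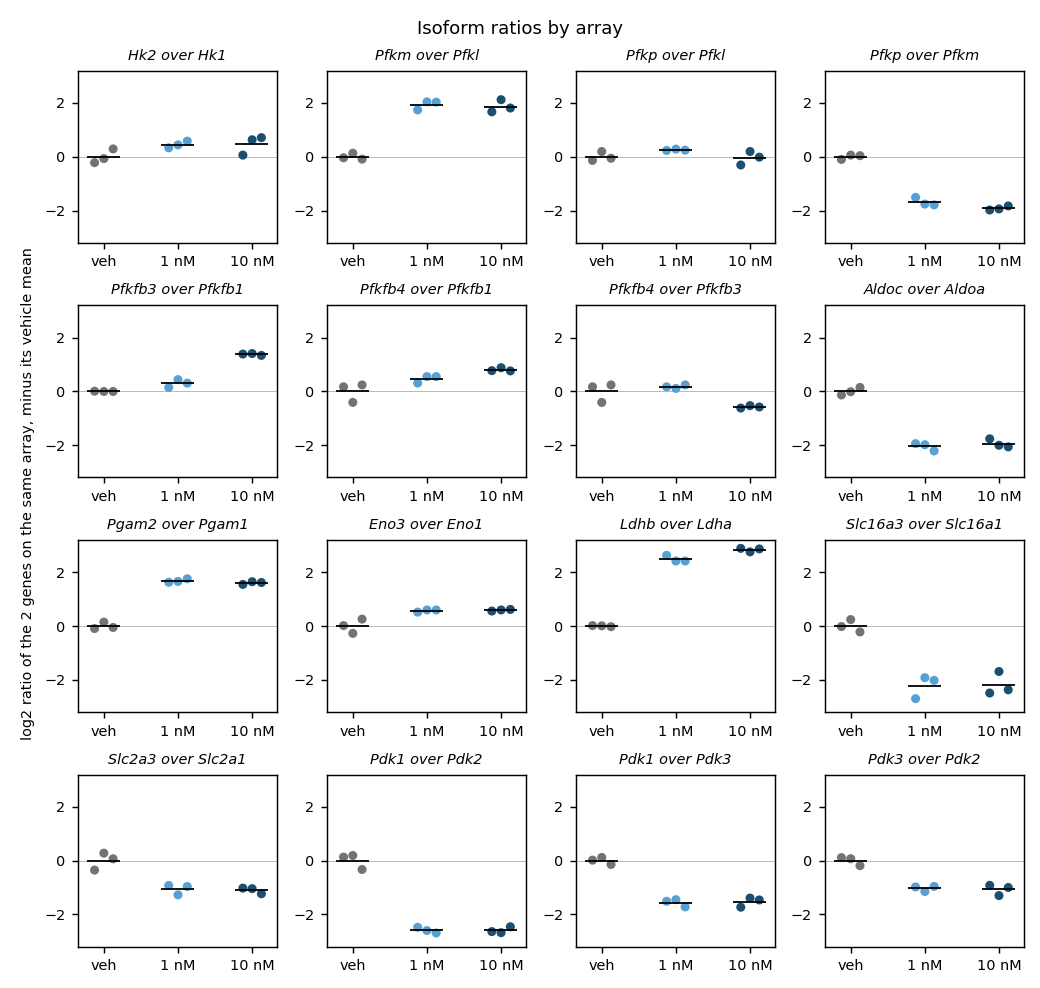
Log2 ratio of 2 isoforms on the same array minus its vehicle mean, for each of the 16 pairs, with 3 points per group and a line at the group mean. The vehicle points and the calcitriol points are separate in 13 of the panels, and the points at 1 nM and 10 nM overlap or lie close in most.

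Several probes bore on 10 of the genes, and they could disagree. The brightest of 7 Gapdh probes, at chr6:125111869-125111928 of mm9, changed by -0.04 and 0.05, and the other 6 changed by -0.41 to -0.31 at 1 nM and by -0.38 to -0.18 at 10 nM. The files place 1 of those 6 on chromosome 8 and the others on chromosome 6. Of the 6, a single probe was called, with -0.41 and -0.30 (adjusted p over probes 0.00717 and 0.0247). Gapdh, the triose phosphate dehydrogenase often used as a standard for expression, was called at 1 nM (-0.32, adjusted p = 0.0425) when its probes were averaged. The 3 Ldha probes fell, with changes of -0.77, -0.99 and -1.10 at 1 nM and -0.71, -1.03 and -1.17 at 10 nM. The second Pfkp probe had changes of -0.62 and -0.73, with an SE of 0.23, beside -1.15 and -1.49 for the brightest. Another Gpi1 probe was called at both doses, with -0.32 and -0.30 (adjusted p over probes 0.0147 and 0.0162). Yet another Gpi1 probe was called at neither (adjusted p over probes 0.0776 and 0.102). Neither of the other Pdhb probes was called at 10 nM (adjusted p over probes 0.0511 and 0.219). The files place the brightest Pgk1 probe on chromosome 3 and the other on chromosome X, where the gene lies. The changes of that other probe were -1.20 and -0.85, against -0.93 and -0.78 for the brightest.

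**Figure D4:**
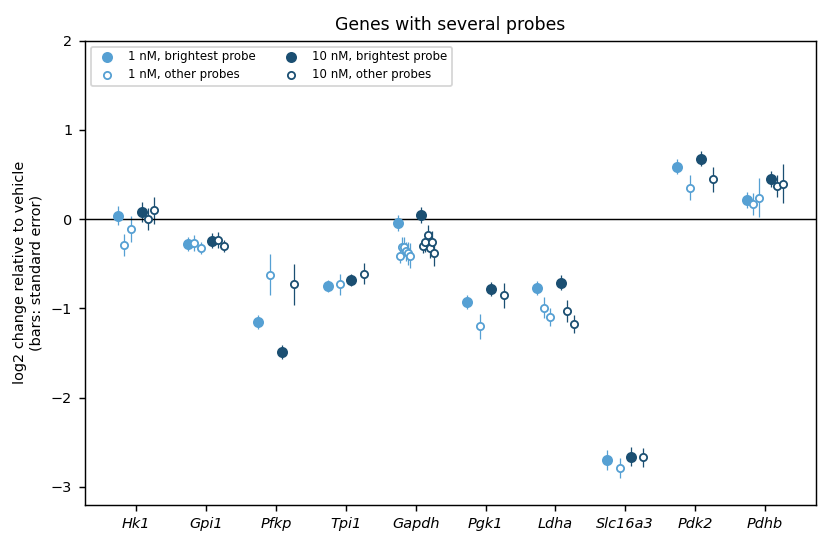
Log2 change relative to vehicle of every kept probe of the 10 genes with several kept probes, at 1 nM (light) and 10 nM (dark), with bars of 1 standard error; filled points are the brightest probe, which stands for the gene. The other Gapdh probes lie below the brightest one, and the Ldha and Slc16a3 probes are all negative.

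Of 46 other genes of the same pathways, 43 were tested. At 1 nM 9 rose and 7 fell, where 23.6% of all genes were called, with a median change of 0.06. At 10 nM 13 rose and 5 fell, where 30.1% were called, with a median of 0.04. The called genes with the smallest p at 1 nM were Slc2a10, a glucose transporter, at -1.78, Pgm1, a phosphoglucomutase, at -0.47 and Me1, the cytosolic malic enzyme, at -0.65. At 10 nM they were Txnip, an inhibitor of glucose uptake, at -1.34, Pdp1, the phosphatase that switches pyruvate dehydrogenase on, at 1.06 and Pgd, of the pentose phosphate pathway, at 1.01. Between the doses Pdp1 rose, with a change of 0.62 (adjusted p = 0.00818), and Txnip fell, with a change of -0.61 (adjusted p = 0.0213). With the replicate block limma no longer called Txnip between the doses.

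Other marker lists moved with the treatment, where 23.6% of all genes were called at 1 nM and 30.1% at 10 nM. Of 15 genes linked to low oxygen outside glycolysis, 8 fell and 1 rose at either dose. Car9, a carbonic anhydrase, fell, with changes of -7.03 at 1 nM and -6.88 at 10 nM. Ndrg1 fell, with changes of -2.03 and -2.56, while Vegfa, the vascular growth factor, rose by 0.84 and 1.58. The summed level of the list was 6.33 to 6.49 with vehicle, 5.60 to 5.67 at 1 nM and 5.89 to 5.96 at 10 nM. All 10 markers of dividing cells fell at either dose, with median changes of -4.06 and -4.61 and a summed level of 5.65 to 5.77 with vehicle, 3.65 to 3.69 at 1 nM and 3.64 to 3.67 at 10 nM. Of 10 skeletal muscle markers 5 rose and 0 fell at 1 nM, and 5 rose and 1, Myog, fell at 10 nM, and the summed level was 8.55 to 8.69 with vehicle, 8.86 to 8.99 at 1 nM and 8.90 to 8.95 at 10 nM. Of 4 fat cell markers Adipoq alone was called, higher at 10 nM. It was above background on 1 vehicle array and on 3 at each dose, so it passed the filter only through the calcitriol groups. Its vehicle values were -8.93, -8.13 and -2.80, the last on vehicle replicate 3. The summed level of the fat cell markers was -3.68 to -1.46 with vehicle, -2.17 to -1.95 at 1 nM and 1.06 to 1.15 at 10 nM. The -1.46 is that of vehicle replicate 3. Of 3 endothelial markers tested Tek rose at either dose, but it had values on 2 vehicle arrays and was above background on 1. The summed level of the endothelial markers was 1.83 to 2.57 with vehicle, 1.93 to 2.38 at 1 nM and 2.18 to 2.64 at 10 nM. The 1.83 is that of vehicle replicate 3, where 2 of the 3 markers had no value. Limma called 0 of 4 leukocyte markers at either dose, with 0 at an unadjusted p under 0.05, and 0 of 2 epithelial markers tested, with 1 at an unadjusted p under 0.05. The part of these lists in the changes of the 31 genes was not tested.

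**Figure D5:**
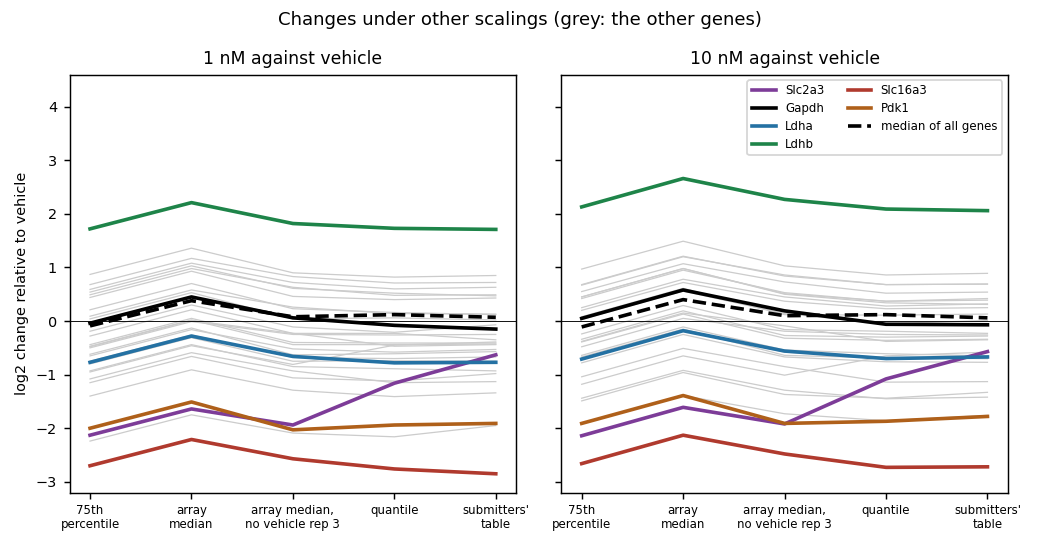
Log2 change relative to vehicle of the 31 genes under 5 scalings, at 1 nM (left) and 10 nM (right), with 6 genes in colour and the median of all genes dashed. Array medians lift every line by about the same amount, Slc2a3 moves towards 0 with quantile normalization and in the submitters' table, and the lines of Ldhb, Slc16a3 and Pdk1 stay far from 0.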

How the data were processed

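Total RNA of 9 C2C12 samples was labelled with Cy3 and read on 1-colour Agilent arrays. The deposited scanner files hold intensity values (processed signal, mean signal and background) per the file headers, and other columns hold 0 or 1 marks. The submitters' processing notes name limma and version 11.5.1.1 of Agilent Feature Extraction. For 30094 probes the deposited value table gives log2 values, with column medians of 9.65 to 9.72. Its columns correlated at 0.9999 with normexp-corrected, quantile-normalized values made here, so it was not centred by gene. It served as an alternative.

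Control and non-uniform spots were left out, log2 of the processed signal minus the array's 75th percentile was taken, and spots of a probe were averaged. A probe was kept where 1 group or more had it well above background on its 3 arrays (28342 of 39429), and the kept probe with the highest mean stood for a gene. Names came from a RefSeq table by accession (21036 kept probes) or symbol (2168), otherwise from the files (5138). Group means were fitted with limma (version 3.58.1, R 4.3.3; lmFit, then eBayes) to all arrays together, without a block, with Benjamini-Hochberg adjustment over all genes and a threshold of 0.05. The procedure was tested on simulated data.

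The members and lists were chosen with earlier results of these data known. All 31 members are named, and of the other lists at most the 3 called genes with the smallest p in a comparison. Vegfa is among them only between the doses, and its changes against vehicle are given as the 1 gene of its list that rose. Epcam and Krt18 are named for detection alone. Replicates rest on the series' design text; if they were not separate cultures, p-values measure technical spread. Across genes, same-numbered arrays of the 2 doses deviated from their group means together, with correlations of 0.484, 0.329 and 0.144. These numbers were taken as pairs in the replicate block, from the data and not the labels, and the main fit left this out. Same-numbered dose arrays shared a slide for replicates 1 and 2 but not 3, so slide and replicate number cannot be told apart. Vehicle numbers were not taken as pairs (-0.42 to 0.053). Alternatives covered scaling, background correction, the deposited table, the probe filter and choice, the spread model, the replicate and slide blocks, single slides, groups fitted, threshold and each array left out. Probe coordinates are mm9 per the file headers, promoters GRCm38.p6.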

Additional observations from a re-analysis of the deposited data

How the results depend on the processing

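Against vehicle, 4 of the 24 genes called at 1 nM and 4 of the 23 called at 10 nM kept their call in all 22 alternatives, and 12 at each dose lost it only under array medians or within slide 1. Under array medians the changes of Gpi1 (0.21), Eno1 (0.02) and Pdk3 (0.05) at 1 nM and of Eno1 (0.19) and Pdk3 (0.13) at 10 nM reversed, and the members called higher and lower were 3 and 4 at 1 nM and 4 and 4 at 10 nM, of 1513 and 2530 genes called in all. Within slide 1 they were 1 and 9 at either dose, of 1584 and 2574 genes. Within slide 2, against the single vehicle array that stood apart, 10449 and 10019 genes were called. In the main fit to all arrays, a threshold of 0.01 on the adjusted p gave 3092 genes at 1 nM and 4339 at 10 nM. Leaving out 1 array at a time gave 5 to 7 higher and 15 to 17 lower members at 1 nM and 7 to 8 and 13 to 16 at 10 nM. Over all genes it gave 3506 to 5570 calls at 1 nM and 5104 to 7155 at 10 nM.

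Between the doses 837 genes were called. The count was 58 under array medians, 557 with quantile normalization, 515 with normexp, 361 in the submitters' table, 535 without the probe filter, 459 with the replicate block, 355 with the slide block, 5 and 0 within slides 1 and 2, 1351 with only those groups fitted, 370 at 0.01, and 366 to 1267 with 1 array left out. Members called higher were 0 under array medians and within either slide, and 1 with normexp, in the submitters' table, with the slide block, at 0.01 and with array medians without vehicle replicate 3, a setting chosen after seeing the data; 1 to 2 were called with 1 array left out. Pfkp was called lower, 1 gene, with a trended robust spread and with only those groups fitted; leaving out 1 array gave 0 to 1. The replicate block ended the call of Pdk3 at 10 nM and of no other member.

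The Slc2a3 over Slc2a1 difference reversed to 0.03 with quantile normalization, 0.50 with normexp and 0.53 in the submitters' table. With a vehicle array left out no isoform pair passed, since 6 against 2 arrays allow too few arrangements. The causes of the other differences were not tested.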
